A study of Mus musculus with 6 samples.

Results

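The genes described here encode the Rab GTPases of vesicle traffic. They are the protein-coding genes whose mouse symbol is Rab followed by a number and, in most, a letter (Rab5a, Rab7, Rab44), which left out Rab-interacting proteins and pseudogenes. Of 25751 genes in the count table, 58 met this rule, and 51 of these passed the filter on low counts and were tested among 14626 genes. One further gene of the annotation that met the rule, Rab9b, was not analysed here.

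Rab proteins are small GTPases that mark the membranes of the secretory and endocytic pathways and recruit the machinery for vesicle budding, transport, tethering and fusion. Each one cycles between an inactive GDP-bound form, kept soluble by GDP dissociation inhibitor (GDI), and an active GTP-bound form on a membrane. Guanine nucleotide exchange factors (GEFs) switch it on, GTPase-activating proteins (GAPs) switch it off, and effectors read the active form. In phagocytes this system guides particles from early to late phagosomes, returns receptors to the surface, and releases granules and lysosome-related organelles.

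The study measured RNA of primary mouse myeloid cells of wild-type genotype with and without trimethylamine N-oxide (TMAO), a small molecule made in the liver from a product of gut bacteria. The groups are 3 libraries without TMAO (control) and 3 with TMAO, all at 24 h. The labels give no dose and do not say whether replicates are separate cultures or animals. The p-values thus cover only the spread of these samples, which may be technical. The control samples are described as Control and the treated ones as T-BMDM in the labels, without an explanation, so treatment and any difference in the source of the cells cannot be told apart.

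Each library held between 37759007 and 41735109 counts. Levels are counts per 1000000 counts (CPM) after TMM scaling (trimmed mean of M values). A fold change is TMAO against control, and its adjusted p comes from the quasi-likelihood test of edgeR, adjusted by Benjamini-Hochberg over all genes tested. Higher and lower are used for an adjusted p under 0.05. By this test 65.7% of all genes tested changed, 33% higher and 32.7% lower, and for 71% no CPM value of one group lay within the range of the other. Markers shared by myeloid cells (6 genes, among them Ptprc, Spi1 and Lyz2) summed to 38530 to 43160 CPM in the control libraries and 35960 to 45590 CPM in the TMAO libraries, of which Lyz2 alone held 37020 ± 2335 and 37360 ± 4499 CPM (SD, n = 3 each). Of the 6, Ptprc was lower at 0.470 of control (edgeR adjusted p = 3.15e-05), Spi1 was higher at 1.86-fold (1.87e-05), and Lyz2, Itgam, Tyrobp and Fcer1g did not pass the test.

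Markers of single cell types moved with the groups. Neutrophil and granulocyte precursor genes summed to 491.1 to 537.6 CPM in control and 4594 to 5854 CPM in TMAO libraries, with 17 of 20 higher and 2 lower. All 8 monocyte genes were higher (sums of 407.1 to 506.3 against 1093 to 1151 CPM), and of 10 macrophage genes 4 were higher and 5 lower (8622 to 9188 against 6509 to 6788 CPM). Of 8 dendritic cell genes, 7 were tested, with 6 higher and 1 lower (60.8 to 64.3 against 76.2 to 81.3 CPM). Erythroid and megakaryocyte genes (4 of 8 tested, all 4 higher) summed to 43.2 to 65.2 against 351.9 to 535.5 CPM. Mast cell, basophil and eosinophil genes (3 of 7 tested, all 3 higher) summed to 0.727 to 1.42 against 15.2 to 19.2 CPM, with Mcpt8 and Ms4a2 at 0 in every control library. B cell genes (7 of 8 tested, 6 higher, with Ebf1 and Pax5 at 0 in every control library) reached 9.06 to 11.4 against 33.1 to 35.5 CPM, T and NK cell genes (2 of 7 tested, 1 higher and 1 lower) 10.5 to 12.6 against 3.71 to 5.42 CPM, and stromal and endothelial genes (3 of 7 higher) 10.3 to 12.7 against 26.6 to 34.4 CPM. Cd4 held most of the T and NK cell sum in control, with 11.6 CPM against 2.54 CPM with TMAO. Nkg7 went from 0 to 1.96 CPM, and Cd3e, Cd3d, Cd3g, Cd8a and Ncr1 were too rare to be tested. The part of any of these cell types in the Rab results was not tested. In bulk RNA a lower share of cells of a type and less RNA per cell cannot be told apart.

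Among the 51 Rab genes tested, 16 were higher and 17 lower with TMAO, which is 64.7% changed beside the 65.7% of all genes, and the direction was about as evenly divided as in the whole table. The median log2 fold change was -0.08 (0.005 for all genes), with a range from -3.35 for Rab42 to 5.03 for Rab44. At least 2-fold changes were found for 10 higher and 10 lower members, where 30.4% of all genes changed at least 2-fold, 15.7% higher and 14.7% lower. For 39 of the 51 no CPM value of one group lay within the range of the other, where this held for 71% of all genes tested. The summed level of all members went from 4892 ± 19.4 (SD, n = 3) to 4547 ± 40.2 CPM (SD, n = 3), a ratio of 0.929, with every control library above every TMAO library. Most of what follows concerns which Rab genes make up that total. Rab30, Rab33a, Rab25 and Rab42 passed the filter through only one group, and without these 4 the count was 13 higher and 16 lower of 47.

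**Figure D1:**
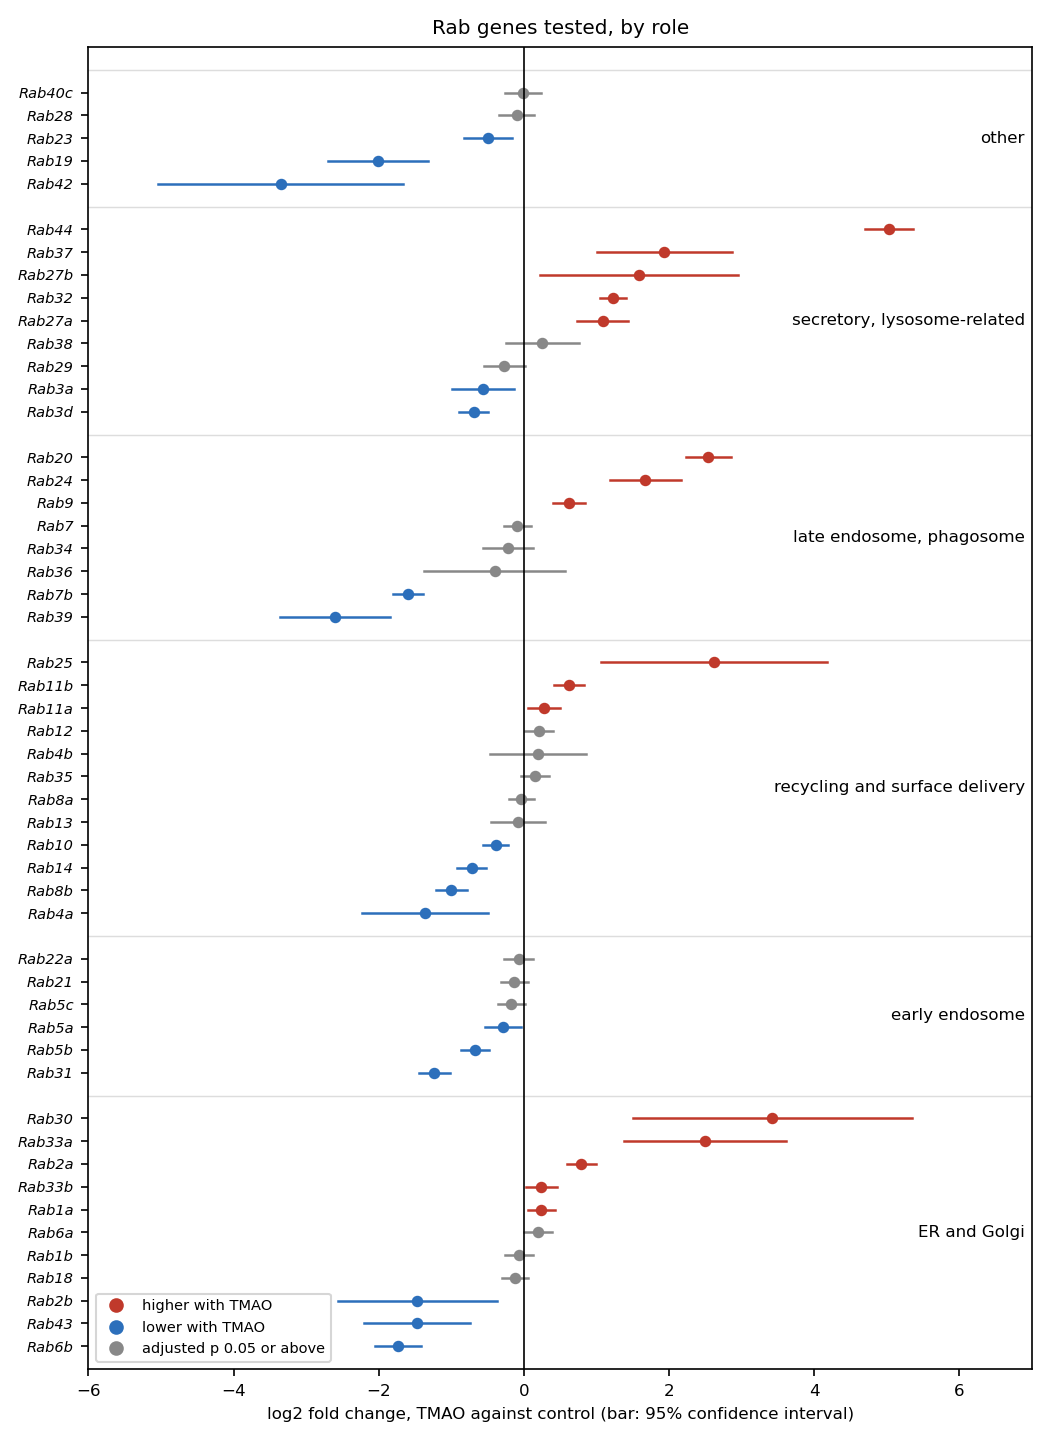
Log2 fold change (TMAO against control) of the 51 Rab genes tested, arranged by role, with bars for the 95% confidence interval and colours for the edgeR call. Secretory and lysosome-related members lie mostly to the right, up to 5.03 for Rab44, the 6 early endosome members and the 5 without one of these roles all lie left of 0, and the remaining roles spread to both sides.

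By role, the 12 genes of secretory granules and lysosome-related organelles had 9 tested, of which 5 were higher and 2 lower (median log2 fold change 1.08). The 6 early endosome genes had 0 higher and 3 lower (median -0.23). Of the 11 ER and Golgi genes 5 were higher and 3 lower (median 0.20), of 12 tested recycling and surface delivery genes 3 were higher and 4 lower (median 0.06), of 8 late endosome and phagosome genes 3 were higher and 2 lower (median -0.16), and of 5 other genes tested 0 were higher and 3 lower (median -0.50). Without the members that passed the filter through one group, the ER and Golgi count was 3 higher and 3 lower of 9 (median -0.07), the recycling count 2 higher and 4 lower of 11 (median -0.04), and that of the other genes 0 higher and 2 lower of 4 (median -0.30). The ER and Golgi median and the recycling median thus turned negative. The secretory, early endosome and late endosome groups held none of these members, so their medians could not change. Summed over each role, secretory members went from 251.5 ± 9.56 to 457.5 ± 18.9 CPM (SD, n = 3 each), a ratio of 1.82, and ER and Golgi members went from 938.9 ± 18.6 to 1097 ± 29.2 CPM, a ratio of 1.17. Early endosome members went from 1082 ± 7.51 to 802.1 ± 24.8 CPM, a ratio of 0.742, and recycling members from 1540 ± 46.1 to 1213 ± 16.5 CPM, a ratio of 0.788. Late endosome members summed to 1020 ± 24.3 and 923.7 ± 49.7 CPM, a ratio of 0.905, and the other members to 59.9 ± 3.42 and 53.4 ± 1.60 CPM. In all 6 roles the sums of one group lay above those of the other, by little for the last. The sums are dominated by their most abundant members and were not tested.

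**Figure D2:**
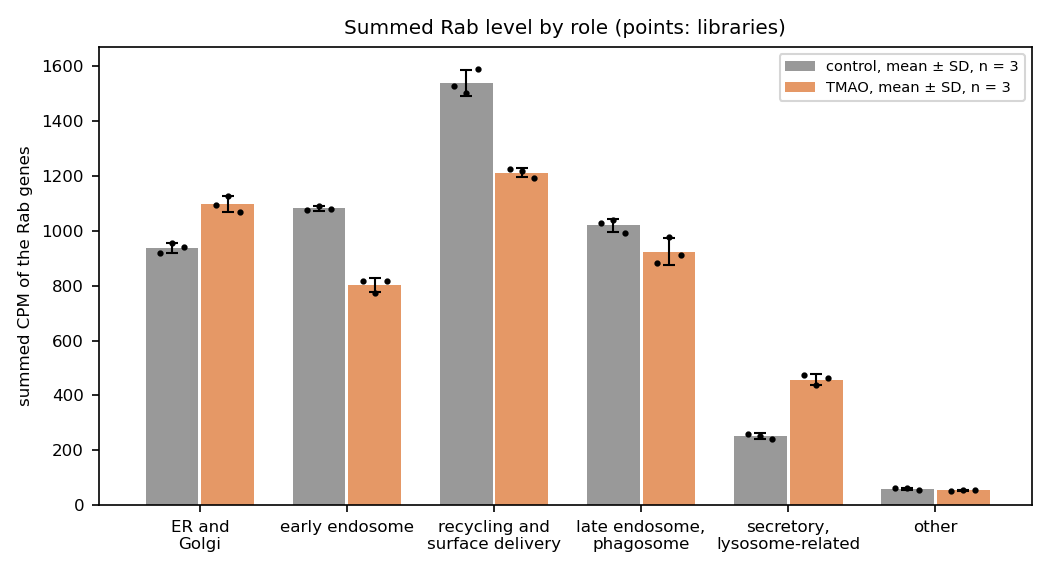
Summed CPM of the Rab genes of each role (bars are the mean, error bars the SD, points the 3 libraries of a group). The secretory bar is higher with TMAO at 457.5 against 251.5 CPM, the early endosome and recycling bars are lower, and recycling members make up the largest part in both groups.

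Compared per kilobase of exon, so that genes of different length can be set side by side, Rab7 had the highest level over all 6 libraries with 251.9 CPM per kb. It was followed by Rab5c with 165.9, Rab32 with 105.2, Rab2a with 97.7, Rab1a with 93.9, Rab1b with 87.2 and Rab8b with 64.8 CPM per kb. Thus the classical late endosome and early endosome markers, a Rab of lysosome-related organelles and the ER to Golgi Rabs led the family in these cells. Rab32 moved within that order, from 63.0 CPM per kb in control to 147.4 with TMAO, while Rab7 was at 259.7 and 244.1 CPM per kb.

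The early endosome Rabs receive newly formed endocytic vesicles, and Rab5 in its 3 forms drives their fusion. Rab31, a close relative of Rab22a that works between the trans-Golgi network and endosomes, was at 238, 236 and 252 CPM in the control libraries and 112, 92.1 and 105 CPM in the TMAO libraries. Every control value lay far above the highest TMAO value, and the log2 fold change was -1.23 (SE 0.0939, adjusted p = 1.81e-06, edgeR). Rab5b was at 182, 181 and 186 CPM in control and 122, 105 and 116 CPM in TMAO libraries (a log2 fold change of -0.68, SE 0.0855, adjusted p = 5.79e-05 by edgeR), again without overlap. Rab5a was lower by a small amount, with 76.8, 77.9 and 86.0 CPM in control and 75.1, 56.6 and 64.8 CPM in TMAO libraries. TMAO 1 was close to the controls (a log2 fold change of -0.29, SE 0.112, adjusted p = 0.0400 by edgeR), and the call was lost when any single library other than TMAO 1 was left out (adjusted p from 0.0525 to 0.122).

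Rab5c, the most abundant of the 3 Rab5 genes, was at 390.4, 409 and 358 CPM in control and 329, 342 and 355 CPM in TMAO libraries and missed the threshold (log2 fold change -0.17, edgeR adjusted p = 0.0951). It was called lower once the trend of fold change with gene length or GC content was removed (-0.46 and -0.34). Rab21, which traffics integrins, had a log2 fold change of -0.13 (adjusted p = 0.178, edgeR) and Rab22a one of -0.07 (95% confidence interval -0.28 to 0.13). With the length trend removed Rab22a was called higher (0.25). The Rab31 and Rab5b calls were kept in that fit. The macrophage markers Adgre1, Mertk and Fcgr1 were lower at 0.309, 0.101 and 0.239 of control, within a list of 10 with 4 higher and 5 lower. The list summed to 8622 to 9188 CPM in control and 6509 to 6788 CPM in TMAO libraries. The part of such cells in the early endosome results was not tested.

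Recycling Rabs return membrane and receptors to the cell surface, and several of them also carry newly made proteins there. Rab8b, which delivers cargo to the plasma membrane, was at 404, 374 and 449.6 CPM in control and 212, 212 and 188 CPM in TMAO libraries. The log2 fold change was -1.0036 (SE 0.0966, edgeR adjusted p = 8.83e-06), and the groups were far apart. Rab14, which moves cargo between the Golgi and endosomes, was at 391, 370.0 and 403 CPM in control and 259, 219 and 227 CPM in TMAO libraries (a log2 fold change of -0.72, SE 0.0909, adjusted p = 5.7e-05 by edgeR). Its exons sum to 13589 bases, the longest of the family, and once the length trend was removed the value was -0.11 (adjusted p = 0.209, edgeR), or -0.39 when the length was taken from the longest transcript (adjusted p = 0.000199, edgeR). Rab10, known for bringing glucose transporters to the surface, was lower by less, with a log2 fold change of -0.39 (SE 0.0772, edgeR adjusted p = 0.00119).

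Rab4a, a Rab of fast recycling, was scarce, with 1.75, 1.88 and 0.872 CPM in control and 0.782, 0.385 and 0.574 CPM in TMAO libraries. Control 3 was close to the treated libraries, and the log2 fold change was -1.36 (SE 0.390, edgeR adjusted p = 0.0104). Rab11b, which serves the slow route through the recycling endosome, went the other way, from 97.8, 101 and 89.7 CPM in control to 138, 162 and 144 CPM in TMAO libraries (a log2 fold change of 0.62, SE 0.0930, adjusted p = 1.84e-04 by edgeR). Its paralogue Rab11a had a log2 fold change of 0.28 (edgeR adjusted p = 0.0271), a call lost without control 1, control 3, TMAO 2 or TMAO 3 and with the length trend removed. Rab25, the epithelial relative of Rab11, was counted 7 times in all controls and 42 times in all TMAO libraries (a log2 fold change of 2.62, SE 0.699, adjusted p = 0.0072 by edgeR).

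Rab8a, Rab12, Rab13, Rab35 and Rab4b did not pass the test, with log2 fold changes between -0.08 and 0.21. Rab8a had the narrowest of their intervals, a 95% confidence interval of -0.21 to 0.14. After the length trend was removed, Rab13 was called lower (-0.35), after the GC trend Rab12 was called higher (0.23), and with the longest transcript as the length Rab8a was called higher (0.22). Rab15 had 12 and 20 counts and Rab17 1 and 2 counts in the control and TMAO groups, too few to be tested. The macrophage marker sums were lower and the neutrophil and monocyte sums higher with TMAO, so a gene changed in either direction moves with one of them. The part of such cells in the recycling results was not tested.

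Late endosome and phagosome Rabs govern the maturation of endosomes toward lysosomes. Rab20, which takes part in phagosome maturation in macrophages, was at 19.2, 19.7 and 14.8 CPM in control and 90.5, 118 and 104 CPM in TMAO libraries. Every treated library was well above every control, with a 5.82-fold rise (a log2 fold change of 2.54, SE 0.140, adjusted p = 2.18e-07 by edgeR). On the opposite strand Rab20 shares 356 exon bases with the noncoding gene E230013L22Rik, which rose from 0.938 ± 0.0961 to 6.16 ± 0.171 CPM (SD, n = 3 each), far below the level of Rab20. Rab24, linked to autophagy, was at 5.04, 4.86 and 3.39 CPM in control and 10.4, 18.0 and 14.0008 CPM in TMAO libraries (a log2 fold change of 1.67, SE 0.220, adjusted p = 7.72e-05 by edgeR). That call is uncertain, because 1258 of its exon bases overlap Prelid1 on the opposite strand. Prelid1 is far more abundant and was higher too, at 178.6 ± 23.8 and 319.6 ± 31.1 CPM, and the strand setting of the counting is not known.

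Rab7b, which carries cargo from late endosomes to the trans-Golgi network, was at 252, 257 and 260.4 CPM in control and 91.2, 75.2 and 87.9 CPM in TMAO libraries. It fell to 0.331 of the control level (a log2 fold change of -1.60, SE 0.0940, adjusted p = 3.34e-07 by edgeR), and the groups were far apart. Rab39, a phagosome and autophagy Rab, was at 2.21, 2.17 and 2.71 CPM in control and 0.252, 0.605 and 0.313 CPM in TMAO libraries (a log2 fold change of -2.60, SE 0.340, adjusted p = 7.29e-05 by edgeR). Rab9, which returns mannose 6-phosphate receptors to the Golgi, was higher, with 44.4, 47.3 and 42.8 CPM in control and 62.8, 76.8 and 67.4 CPM in TMAO libraries (a log2 fold change of 0.62, SE 0.0999, adjusted p = 3.06e-04 by edgeR).

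Rab7 itself, the central Rab of late endosomes and lysosomes, did not pass the test. Its levels were 690.2, 689 and 654 CPM in control and 614, 674 and 623 CPM in TMAO libraries, which overlap, and the 95% confidence interval of its log2 fold change ran from -0.27 to 0.09. With the length trend removed it was called lower (-0.29, edgeR adjusted p = 0.00257). Rab34 and Rab36 did not pass the test either (log2 fold changes of -0.22 and -0.40), though Rab34 was called lower with the length trend (-0.47), the GC trend (-0.47) or the longest-transcript trend (-0.53) removed. The macrophage list moved in both directions beside this group, with Adgre1 and Mertk lower and C1qa and C1qb higher (1.69-fold and 1.60-fold).

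Secretory Rabs dock and release granules, and several build lysosome-related organelles such as melanosomes and the secretory lysosomes of blood cells. Rab44, a large atypical Rab with an EF-hand and a coiled coil, was at 0.849, 0.967 and 0.848 CPM in control and 31.2, 26.2 and 30.1 CPM in TMAO libraries. It rose 32.7-fold (a log2 fold change of 5.03, SE 0.148, adjusted p = 5.36e-09 by edgeR), the largest change of any Rab gene tested. Rab32, which directs proteins to lysosome-related organelles and takes part in the defence against intracellular bacteria, was at 152, 147 and 142 CPM in control and 358, 332 and 345 CPM in TMAO libraries. This was a 2.34-fold rise (a log2 fold change of 1.23, SE 0.0802, adjusted p = 6.56e-07 by edgeR), and Rab32 made up 147.3 of the 251.5 CPM summed over the group in control and 344.7 of the 457.5 CPM with TMAO.

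Rab27a, which docks secretory lysosomes and granules at the plasma membrane, was at 8.85, 8.17 and 7.10 CPM in control and 18.9, 13.6 and 18.5 CPM in TMAO libraries (a log2 fold change of 1.08, SE 0.155, adjusted p = 1.4e-04 by edgeR). Its paralogue Rab27b was rarely counted, with 30 control and 86 TMAO counts (a log2 fold change of 1.58, SE 0.615, adjusted p = 0.0425 by edgeR), and the call was lost without control 2, control 3, TMAO 1 or TMAO 2 (adjusted p from 0.0524 to 0.164). Rab37, a granule Rab, had 44 control and 161 TMAO counts (a log2 fold change of 1.94, SE 0.420, adjusted p = 0.00216 by edgeR). Rab26 had no count in any control and 14 in the TMAO libraries, too few to be tested. Taking 3 counts over all controls as the floor, the ratio was 4.96. It takes the 14 TMAO counts as free of error and so is not a lower bound. Of the Rab26 exons, 294 bases overlap Traf7 or an antisense gene, and Traf7 had a mean of 58.98 CPM in both groups.

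The Rab3 genes, known for regulated exocytosis, went the other way. Rab3d was at 68.2, 65.4 and 66.5 CPM in control and 42.1, 37.7 and 44.0 CPM in TMAO libraries, with groups well apart (a log2 fold change of -0.69, SE 0.0911, adjusted p = 7.52e-05 by edgeR). Rab3a was lower as well (a log2 fold change of -0.57, SE 0.193, adjusted p = 0.0248 by edgeR), a call lost without control 1, control 2 or TMAO 3. Rab3b (2 and 6 counts) and Rab3c (1 and 0 counts) were not tested. Rab38, the relative of Rab32, and Rab29 did not pass the test, with log2 fold changes of 0.26 and -0.27, and Rab29 was called lower with the length trend removed (-0.65).

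Neutrophil and mast cell markers, some of which encode granule proteins, were set beside these secretory genes. Of the 20 neutrophil genes 17 were higher and 2 lower, Csf3r and Mmp9 (0.611 and 0.569 of control), and Mmp8 did not pass the test. Among the mast cell, basophil and eosinophil genes, Cpa3 and Ms4a2 were too rare to be tested. Elane, which encodes the granule enzyme neutrophil elastase, went from 0.101 ± 0.103 to 234.3 ± 35.2 CPM (SD, n = 3 each), and S100a9 from 17.4 ± 4.05 to 1851 ± 304.3 CPM. The summed neutrophil markers of a library and its Rab44 level were both high in all 3 TMAO and low in all 3 control libraries. Any measures that are higher in every TMAO library than in every control library share this pattern. It therefore carries no information on a link between the neutrophil markers and Rab44. The part of such cells in the Rab44, Rab27a, Rab37 and Rab32 results was not tested.

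**Figure D3:**
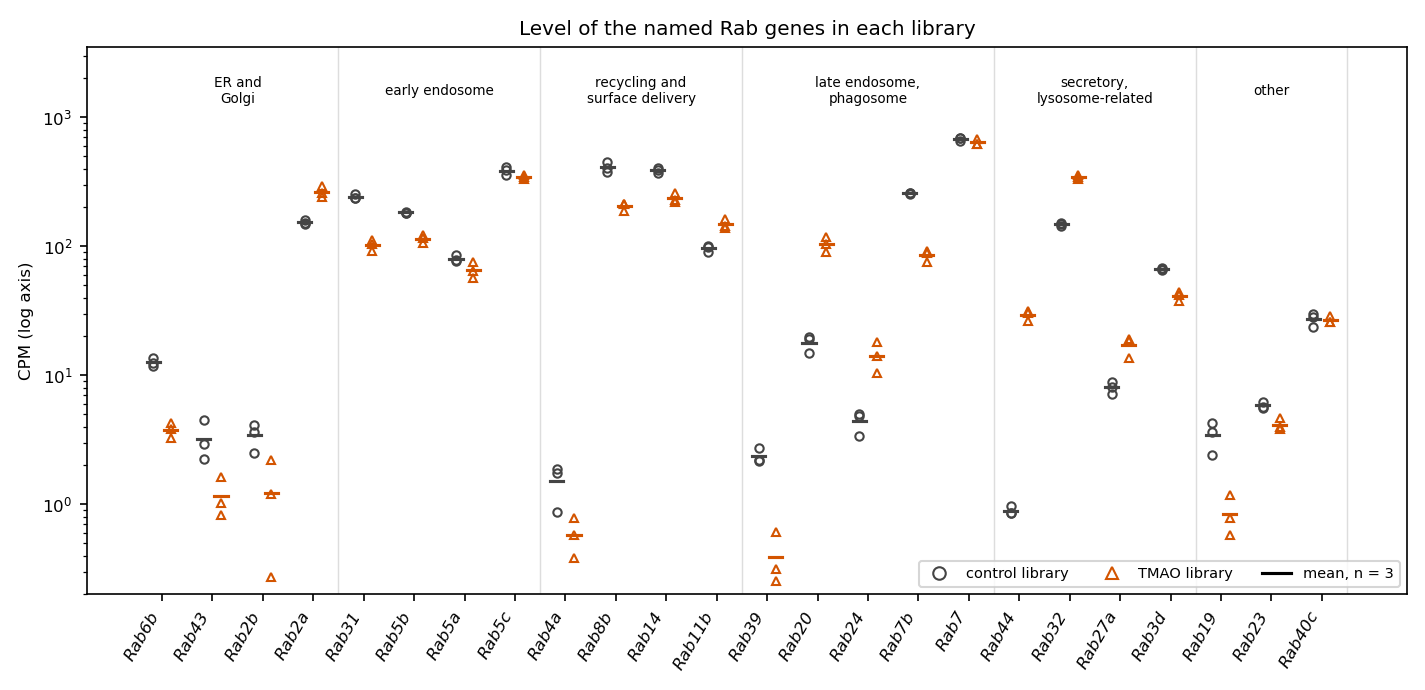
CPM of the Rab genes named by the rule, in each library, on a log axis (circles for control, triangles for TMAO, bars for the mean of 3 libraries). Rab44 shows the widest gap between groups, Rab20, Rab24, Rab32 and Rab27a are higher with TMAO, Rab31, Rab8b, Rab7b, Rab39 and Rab6b are lower, and the circles and triangles of Rab7 and Rab40c overlap.

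ER and Golgi Rabs carry cargo from the endoplasmic reticulum through the Golgi. Rab2a, which acts on the route between these compartments, was at 151, 159 and 148 CPM in control and 243, 290.4 and 259 CPM in TMAO libraries (a log2 fold change of 0.79, SE 0.0908, adjusted p = 3.05e-05 by edgeR). All treated values lay above all control values. Its paralogue Rab2b was lower, from 3.63, 2.51 and 4.12 CPM in control to 2.19, 0.275 and 1.1993 CPM in TMAO libraries (a log2 fold change of -1.47, SE 0.495, adjusted p = 0.0230 by edgeR). That value is uncertain: TMAO 2 held 10 counts, the call was lost without control 1, control 3 or TMAO 3, and 2664 exon bases overlap Tox4 or an antisense transcript.

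Rab6b, the brain-enriched form of the Golgi Rab6, was lower in every treated library, with 11.8, 12.4 and 13.5 CPM in control and 3.86, 3.27 and 4.22 CPM in TMAO libraries (a log2 fold change of -1.73, SE 0.143, adjusted p = 3.07e-06 by edgeR). Rab43, which acts between the ER and the Golgi, was at 2.93, 2.22 and 4.48 CPM in control and 1.61, 0.825 and 1.02 CPM in TMAO libraries (a log2 fold change of -1.47, SE 0.327, adjusted p = 0.00248 by edgeR). Of the 50-base words of Rab43, 90.3% also occur in the overlapping gene model Gm45140, so its level depends on how such reads were assigned.

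The remaining ER and Golgi members were rare or moved little. Rab30 (6 control and 64 TMAO counts, log2 fold change 3.42, SE 0.864) and Rab33a (16 and 86 counts, log2 fold change 2.49, SE 0.502) were higher from near 0 (edgeR adjusted p = 0.00527 and 0.00136). Rab33b, active at the Golgi and in autophagy, had a log2 fold change of 0.24 (edgeR adjusted p = 0.0421), lost when any 1 library was left out. Rab1a, needed for transport from the ER to the Golgi, was at 311, 333 and 339 CPM in control and 394, 402 and 362 CPM in TMAO libraries (log2 fold change 0.24, edgeR adjusted p = 0.0284), lost without control 1, control 2, TMAO 1 or TMAO 2. Rab1b, Rab6a and Rab18 did not pass the test, with log2 fold changes of -0.07, 0.20 and -0.12. Without the length trend Rab1b was called lower (-0.34, and -0.31 without the GC trend, -0.33 with the longest transcript), and Rab18 was called higher without the GC trend (0.24) and with the longest transcript (0.38). Rab6a was called higher in the fit without the GC trend (0.36) and shares 708 exon bases with Mrpl48, which was higher. Summed neutrophil markers (491.1 to 537.6 against 4594 to 5854 CPM) and monocyte markers (407.1 to 506.3 against 1093 to 1151 CPM) were higher with TMAO, whereas the ER and Golgi genes moved in both directions. The part of such cells in the ER and Golgi results was not tested.

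Among the members outside these roles, Rab19 was at 3.63, 4.23 and 2.42 CPM in control and 0.782, 0.578 and 1.17 CPM in TMAO libraries, with no overlap (a log2 fold change of -2.01, SE 0.310, adjusted p = 2.28e-04 by edgeR). Rab23, a regulator of Hedgehog signalling, was at 5.71, 5.58 and 6.20 CPM in control and 3.81, 3.93 and 4.67 CPM in TMAO libraries (a log2 fold change of -0.50, SE 0.150, adjusted p = 0.0138 by edgeR), lost with the length trend removed (-0.11). Rab42 was rare, with 47 control and 4 TMAO counts (a log2 fold change of -3.35, SE 0.760, adjusted p = 0.00281 by edgeR). Rab28 and Rab40c did not pass the test, Rab28 was higher in the fit without the GC trend (0.36), and the Rab40c libraries overlapped at 23.7 to 29.8 CPM in control and 25.8 to 28.9 CPM with TMAO. Rab39b (4 and 0 counts) and Rab40b (0 and 4 counts) were not tested.

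Many Rab genes come as close paralogues that share a membrane and much of their function, so the balance within each family was taken as the share of each member in the family's CPM per kb. Rab8b held 68.9% ± 2.001 of Rab8a plus Rab8b in control and 53.2% ± 2.71 in TMAO libraries (SD, n = 3 each). Rab31 held 85.7% ± 0.900 and 72.7% ± 1.73 of Rab22a plus Rab31. Rab7b held 17.6% ± 0.658 and 7.01% ± 0.958 of Rab7 plus Rab7b. In each of these 3 families the member whose level fell lost share to a paralogue that did not pass the test, and no library of one group reached the range of the other.

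Rab6b held 8.13% ± 0.366 of the Rab6 pair in control and 2.28% ± 0.322 with TMAO. Within Rab5, the share of Rab5b was 18.6% ± 1.08 and 13.9% ± 0.996, that of Rab5c 74.9% ± 1.75 and 79.7% ± 1.90, and that of Rab5a 6.51% ± 0.682 and 6.36% ± 0.909. Hence Rab5c was the main Rab5 transcript in both groups. Rab11b held 35.3% ± 0.871 and 40.9% ± 0.772 of the Rab11 pair, and Rab33a 1.77% ± 0.977 and 8.07% ± 1.13 of the Rab33 pair. For Rab4a the share was 54.8% ± 16.9 in control, spread between 35.3% in control 3 and 65.0% in control 1, and 29.3% ± 2.36 with TMAO. Rab4b, the other member of that family, shares 93% of its 50-base words with the readthrough model Gm21983. Rab32 (98.7% and 99.3% of Rab32 plus Rab38), Rab27a (98.9% and 98.4%) and Rab3d (89.7% and 88.7% of the Rab3 genes) were the main members of their families in both groups. These shares were not tested.

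**Figure D4:**
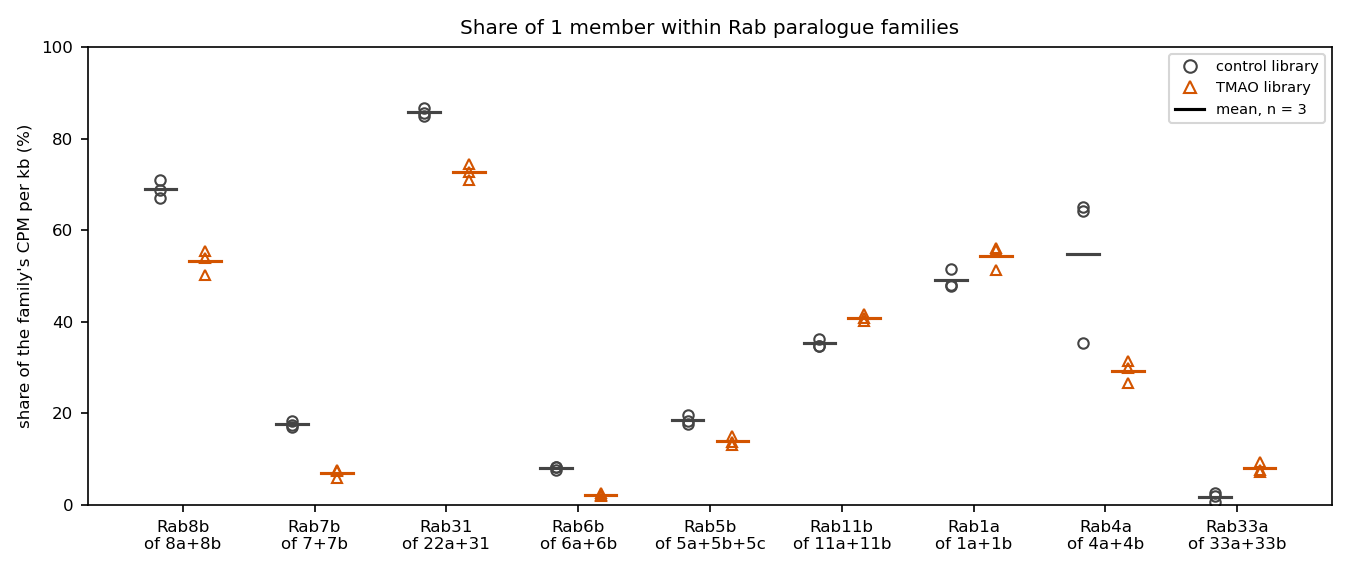
Share of 1 member in the summed CPM per kb of its paralogue family (percent), by library, with bars for the mean of 3 libraries. The circles (control) of Rab8b, Rab7b, Rab31, Rab6b and Rab5b lie above the triangles (TMAO), those of Rab11b and Rab33a lie below, and control 3 stands apart from the other 2 controls for Rab4a.

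Genes that act on or with Rab proteins were taken from 7 lists of 128 genes, of which 116 were tested. In all, 23 were higher and 64 lower, with a median log2 fold change of -0.34, where 33% of all genes were higher and 32.7% lower. The same background holds for the counts of each list. These genes are long (median exon length 6846.5 bases, against 3901 for all genes), and longer genes had lower fold changes across the whole table. With that trend removed the count was 34 higher and 50 lower, so that 40.5% of the changed genes were higher in place of 26.4%. Over all genes these shares were 52.4% and 50.3%. With the longest transcript as the length it was 33 higher and 48 lower.

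The lists of the Rab cycle came first. Among 7 genes of GDI and prenylation, which chaperone Rabs and attach their lipid anchors, 3 were higher and 3 lower. Rabac1, which helps to load prenylated Rabs on membranes, rose from 122.8 ± 18.4 to 271.4 ± 45.5 CPM (SD, n = 3 each; log2 fold change 1.14, SE 0.142, edgeR adjusted p = 5.1e-05). Rabggta, the alpha subunit of the enzyme that prenylates Rabs, rose from 19.5 ± 2.36 to 33.1 ± 1.48 CPM, and Chml, a Rab escort protein, fell from 11.2 ± 1.93 to 4.93 ± 1.06 CPM. Gdi2, the most abundant of the list, had a log2 fold change of -0.25 (edgeR adjusted p = 0.0178).

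Of 32 GEFs tested, 7 were higher and 17 lower (median -0.28), and 10 higher and 11 lower with the length trend removed (median -0.05). Rab3il1, an exchange factor for Rab8 and relative of Rabin8, was at 106, 105 and 96.7 CPM in control and 29.0, 29.5 and 29.3 CPM in TMAO libraries (a log2 fold change of -1.81, SE 0.0858, adjusted p = 7.87e-08 by edgeR). Rab8b was lower too, whereas Rabin8 itself (Rab3ip) was higher, with a log2 fold change of 0.44 (SE 0.132, adjusted p = 0.0137 by edgeR). Dennd1b, a GEF for Rab35, went from 50.6 ± 6.18 to 14.5 ± 0.868 CPM, and Dennd6a, a GEF for Rab14, from 62.5 ± 5.07 to 23.0 ± 3.13 CPM. Of 32 GAPs tested, 5 were higher and 17 lower (median -0.42), or 9 and 15 with the length trend removed. Tbc1d4, also known as AS160, acts on Rab10 and related Rabs, and fell from 15.4 ± 0.395 to 2.03 ± 0.449 CPM (a log2 fold change of -2.92, SE 0.169, adjusted p = 3.01e-07 by edgeR). Tbc1d14 and Tbc1d16 were at 0.320 and 0.317 of their control levels.

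Effectors were grouped by the compartment they serve. Of 12 early endosome effectors 2 were higher and 7 lower (4 and 5 with the length trend removed), and Ankfy1, a Rab5 effector, fell from 247.6 ± 26.3 to 106.3 ± 8.69 CPM. Pik3r4, the regulatory subunit of the endosomal lipid kinase Vps34, fell from 42.4 ± 0.841 to 22.0 ± 1.60 CPM, and Tgfbrap1, a subunit of the CORVET tether, from 66.7 ± 4.53 to 36.1 ± 2.70 CPM. Of 11 late endosome effectors 2 were higher and 7 lower, the same count with the length trend removed (median -0.92, and -0.53 without the trend). Fyco1, a Rab7 effector that links late endosomes to kinesin, fell from 39.1 ± 5.81 to 10.6 ± 1.88 CPM, Plekhm1 from 167.6 ± 7.61 to 85.8 ± 4.27 CPM and Osbpl1a from 26.8 ± 2.90 to 11.3 ± 0.579 CPM.

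Among 17 recycling effectors tested, 2 were higher and 10 lower (4 and 8 with the length trend removed), and the 2 higher ones changed the most. Ehd1, which shapes recycling tubules, was at 137, 138 and 115 CPM in control and 701, 695 and 749 CPM in TMAO libraries, a 5.49-fold rise (a log2 fold change of 2.46, SE 0.0992, adjusted p = 2.69e-08 by edgeR). Rab11fip1, a Rab11 effector, rose from 24.5 ± 2.14 to 96.9 ± 8.61 CPM (a log2 fold change of 1.98, SE 0.107, adjusted p = 1.81e-07 by edgeR), whereas Rab11fip5, of the same family, fell from 100.2 ± 5.50 to 31.2 ± 2.69 CPM (a log2 fold change of -1.68, SE 0.0980, adjusted p = 3.06e-07 by edgeR). Of 13 secretory effectors 5 were tested. Sytl1 and Sytl3, which bind Rab27, were higher at no more than 1.02 CPM in any library. Both passed the filter only through the TMAO group, with control levels of at most 0.242 and 0.154 CPM. With a filter of at least 1 CPM in 3 libraries, 0 secretory effectors were higher and 3 lower. Lrrk1 fell from 44.8 ± 3.68 to 15.4 ± 2.90 CPM, Unc13d, a Rab27a effector in granule release, fell to 0.779 of its control level, and Lrrk2, a kinase of Rab proteins, had overlapping groups (log2 fold change -0.55, edgeR adjusted p = 0.0277). The Lrrk2 call was lost without control 3, TMAO 2 or TMAO 3, and also in the fit without the length trend.

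**Figure D5:**
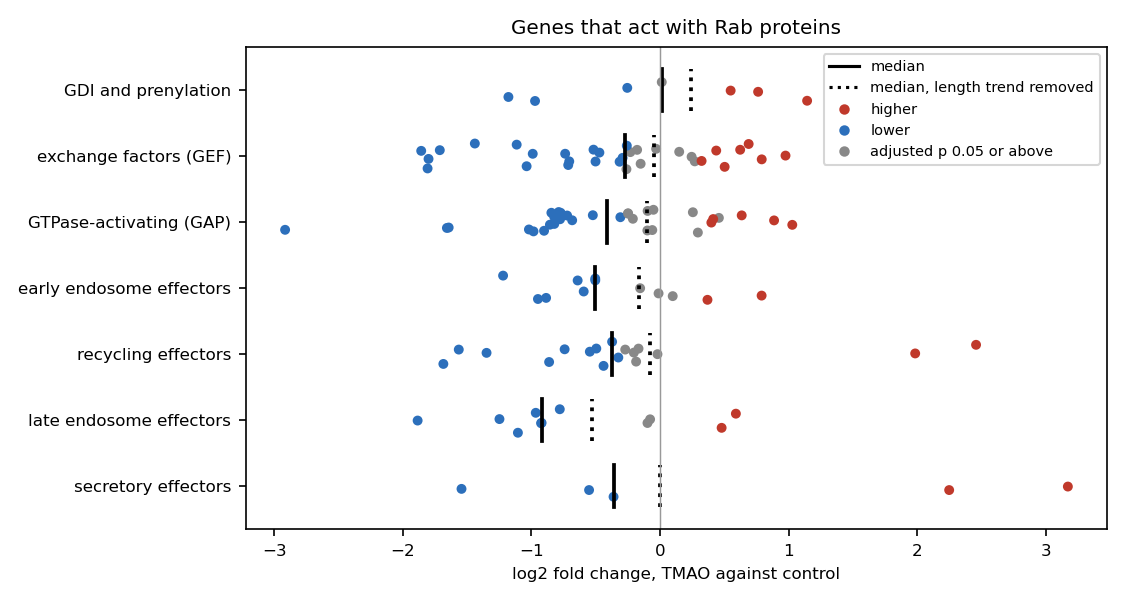
Log2 fold change (TMAO against control) of the genes tested in 7 lists of Rab regulators and effectors, 1 point a gene, with the list's median (solid line) and its median after the length trend was removed (dotted line). Most lists have their median below 0, every dotted line lies to the right of its solid line, and Ehd1 and Rab11fip1 stand out to the right among the recycling effectors.

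Sequence before the start sites was compared as a description. RefSeq promoter windows of GRCm38.p6, from 250 bases before to 50 after a start, were found for 47 of the 58 genes (59 windows). They held a median of 20 CpG pairs and 61% GC, against 7 pairs and 52.7% in all 32851 windows. Rab44, Rab7b, Rab2a, Rab37 and Rab30 were among the genes without a window. For 47 of the 59 windows the first 30 bases after the start lay in a transcript of the gene. The E-box CACGTG, which reads the same on both strands, was found in 6 of the 59 windows (10.2%) and in 7.15% of all windows. Its longer form with GT before and AC after it, named CLEAR for the network of lysosomal genes and chosen after the sequences were seen, was in 3 windows (5.08%) and in 0.326% of all windows. The stretches around each E-box are shown, from 5′ to 3′ on the strand of the gene with the E-box in capitals, because they come from genes of each call. Rab20, Rab24 and Rab27a were higher with TMAO, Rab5a and Rab23 lower, and Rab21 did not pass the test.
Rab20, chr8:11478661-11478706, minus strand: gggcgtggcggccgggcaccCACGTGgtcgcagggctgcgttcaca
Rab24, chr13:55321953-55321998, minus strand: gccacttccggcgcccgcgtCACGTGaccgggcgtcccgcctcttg
Rab27a, chr9:73063898-73063927, plus strand: cttgCACGTGctcctccgtctgtctgaacc
Rab5a, chr17:53478984-53479024, plus strand: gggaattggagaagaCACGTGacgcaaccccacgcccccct
Rab5a, chr17:53479119-53479164, plus strand: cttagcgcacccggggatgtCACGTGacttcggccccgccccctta
Rab23, chr1:33719658-33719703, plus strand: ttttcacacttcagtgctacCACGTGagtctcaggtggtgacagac
Rab21, chr10:115315596-115315641, minus strand: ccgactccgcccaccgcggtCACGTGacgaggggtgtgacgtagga

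The CLEAR form was found for Rab24 (higher), Rab5a (lower) and Rab21 (did not pass the test), so its holders did not share a direction. Other motifs were searched on both strands. Their shares of the Rab windows and of all windows were, for TGACGTCA (CRE), 3.39% (2 windows) and 1.79%, and, for the rest, TGAGTCA (AP-1) in 5.08% and 5.2%, GAGGAAGT (ETS) in 3.39% and 3.2%, the ISRE motif (TTTC, any 2 bases, TTTC) in 1.69% and 3.44%, TTGCNNCAA (C/EBP) in 0% and 2.08%, and the kappaB motif in 5.08% and 8.46%. A match describes the letters in the window and says nothing of binding.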

How the data were processed

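RNA of 6 libraries was sequenced as poly(A)-selected, paired-end libraries, per the labels' protocols, which name 2 sequencers and not the one used for each library. The authors deposited raw counts per Ensembl gene, whole numbers without normalization. Per the submitters' processing notes the genome build is GRCm39. The aligner, counter, strand setting and annotation release: not given in the sources used here. Groups came from sample titles and columns from sample descriptions.

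Symbols, exon lengths and overlaps came from GENCODE M21 (build GRCm38), matched by ID for 25386 of 25751 genes. The fit across genes used R 4.3.3 with limma 3.58.1 and edgeR 4.0.16: filterByExpr with a minimum count of 10, TMM, a quasi-likelihood F test without covariates and Benjamini-Hochberg adjustment over 14626 genes at 0.05. Alternatives were DESeq2 1.42.0, limma-voom, other scalings and filters, single libraries left out, and a lowess trend of each library's deviations on exon length or GC content removed through offsets. The members and all lists were chosen with earlier results of these data known.

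Named in each role were up to 4 called members with a mean of at least 1 CPM by largest absolute log2 fold change, and the member with the highest CPM per kb; in each partner list, up to 3 called genes by smallest p with a mean of at least 1 CPM. Other genes named were chosen after their values were seen. Same-numbered libraries of the groups had correlated deviations of 0.105, 0.315 and -0.194, so the numbers were not taken as pairs. Library pairs within a group differed beyond sampling noise (chi-square per degree of freedom of 13 to 65.6). The steps were checked on simulated counts of 14626 genes for TMAO against control. There the test called 52% of 50 genes at 1.5-fold, 70% of 50 at 2-fold, 96% of 50 at 4-fold, 92% of 50 at 8-fold and 0.0763% of 14426 unchanged genes. The 95% intervals of fold changes come from the edgeR SE, which includes the spread between libraries. The floor of 3 counts covers counting error of the control group only.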

Additional observations from a re-analysis of the deposited data

How the results depend on the processing

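Of the 33 Rab genes called, 14 kept their direction and call in every alternative run, 5 more (Rab30, Rab33a, Rab42, Rab25 and Rab4a) kept them in those that tested them but went untested in 1, and none reversed. Of the 18 not called, 12 were called in some alternative, 4 of these (Rab22a, Rab18, Rab28 and Rab8a) with the opposite sign. When the test asked for more than a 1.5-fold change, 10 Rab genes were higher and 9 lower, 10 partner genes higher and 34 lower, and 2630 of all genes higher and 2554 lower. Among members without exon overlap with another gene, 10 were higher and 12 lower of 34 tested, since fewer genes were counted. Leaving out 1 library at a time gave 12 to 14 Rab genes higher and 14 to 17 lower, 21 to 26 partner genes higher and 57 to 67 lower, and 4392 to 4955 of all genes higher and 4225 to 4976 lower. With the replicate number as a block, 15 Rab genes were higher and 17 lower, 24 partner genes higher and 65 lower, and 4887 of all genes higher and 4836 lower; Rab33b lost its call, and not every library correlated best with its own number (0.34 between control 3 and TMAO 1). With the GC trend removed 20 Rab genes were higher and 20 lower, and with the trend on the longest transcript, an alternative chosen after seeing the data, 19 and 22. With that length the shares of Rab6a and Rab7 in their pairs rose by 5.14 and 9.36 percentage points.

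Values of members that were not called, and of Lrrk2, changed sign in some alternatives, and the cause was not tested. The log2 fold change of Rab40c was 0.0148 with upper quartile scaling, and from -0.1164 to 0.0423 with 1 library left out, above 0 without control 1, control 2, TMAO 1 or TMAO 3. With 1 library left out, that of Rab13 ran from -0.2231 to 0.0605 and that of Rab8a from -0.0651 to 0.0028. With the length trend removed, values were 0.2455 for Rab22a (adjusted p = 0.0147, edgeR), 0.1602 for Rab18, 0.0311 for Rab8a, -0.0158 for Rab35, -0.1162 for Rab4b and -0.1086 for Rab38. On the longest transcript they were 0.4979 for Rab22a (adjusted p = 0.000175, edgeR), 0.3829 for Rab18 (0.000664), 0.2206 for Rab8a (0.0129), 0.1364 for Rab21, -0.0090 for Rab12, -0.1772 for Rab4b, -0.0798 for Rab38 and 0.0889 for Lrrk2. With the GC trend removed they were 0.2408 for Rab18 (adjusted p = 0.0199, edgeR), 0.3611 for Rab28 (0.0261), 0.0958 for Rab21, -0.0048 for Rab35 and -0.0374 for Rab4b. Depth left 7 members untested.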

Other observations

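Across the 51 Rab genes tested, the log2 fold change had a Pearson r of 0.07 and a Spearman rho of -0.10 with log2 exon length, and over 14598 genes with a length these were -0.23 and -0.30. With GC content r was 0.01 and rho -0.04 over the Rab genes, against 0.15 and 0.19 over all genes. Genes are not independent replicates and share the same 6 libraries, so these values are a description. Rab genes were close to the whole table in exon length (median 3538 against 3901 bases) and GC content (49.1% against 49.4%), and had a higher median level (27.1 against 15.3 CPM).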
